A study of Drosophila melanogaster with 2 samples.

Results

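The genes described here are the translation initiation and elongation factor genes of Drosophila melanogaster. The members are the protein-coding genes whose symbol in the Ensembl annotation begins with eIF or eEF followed by a digit. The rule gave 51 genes, 44 of them initiation factors (eIF) and 7 elongation factors (eEF), of 13945 protein-coding genes on the 6 chromosome arms. Chromatin immunoprecipitation with sequencing (ChIP-seq) had been done on whole embryos, 6 to 16 hours old and of pooled sexes, from a stable transgenic line in which dmrt99B carries GFP at its C-terminal end. Per the labels an anti-GFP antibody was used, although the antibody field reads dmrt99B. There was 1 group with 2 biological replicates, numbered 3 and 4, so that no condition could be compared with another. The data were lists of peaks, each with a signal value, which is the score that the authors' peak caller gave. The files and labels state no read totals, and the depth behind each peak is unknown. Peaks came from all cells of the embryo, and the lists do not say in which cells the fusion protein lay on a promoter.

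Initiation factors bring the small ribosomal subunit, the initiator tRNA and the capped mRNA together, scan for the start codon and join the large subunit. Elongation factors then deliver aminoacyl-tRNAs and move the ribosome along the message. Most of these genes are needed in every growing cell, and many have promoters of the housekeeping type, whereas some copies are used mainly in the germ line. Dmrt99B belongs to the DM-domain transcription factors, the family of doublesex.

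A gene was taken as promoter-bound when the summit of a peak in the list thresholded on the irreproducible discovery rate (IDR) lay within 1000 bp of one of its annotated transcription start sites (TSSs). By this rule 11 of the 51 genes were bound, or 21.6% (95% Wilson interval over genes 12.5% to 34.6%), against 20.1% of all protein-coding genes. The translation factors as a whole therefore stood at the level of the genome. They were uneven among themselves: 4 of 7 elongation factors were bound (57.1%), against 7 of 44 initiation factors (15.9%). The bound elongation factors were eEF1alpha1, eEF1gamma, eEF2 and eEF5. The bound initiation factors were eIF2beta, eIF2Bbeta, eIF3h, eIF4A, eIF4EHP, eIF5B and eIF6. The difference between both classes is a description of few genes and was given no test.

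**Figure D1:**
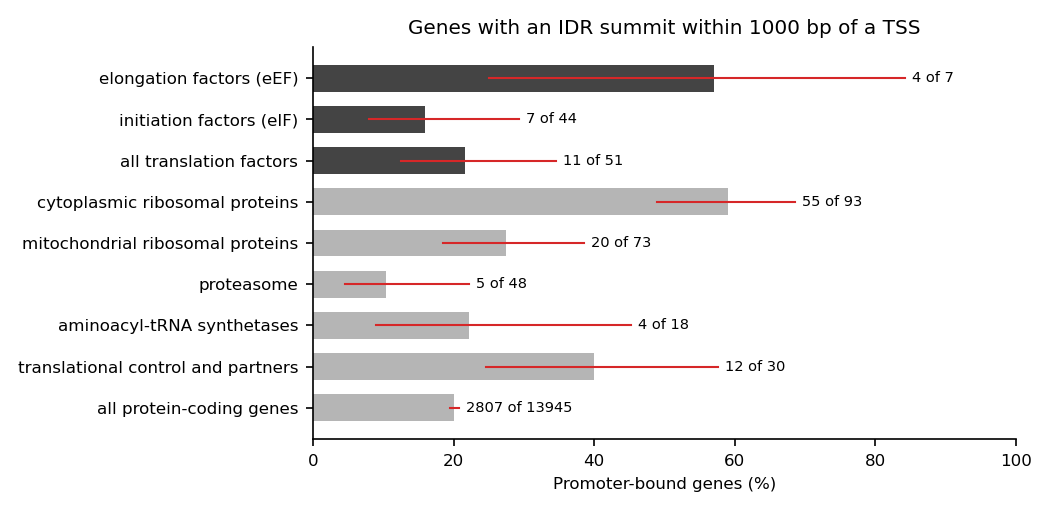
Percentage of genes with an IDR summit within 1000 bp of a TSS (x axis) for the elongation, initiation and all translation factors (dark bars), for other gene lists and for all protein-coding genes (light bars). Red lines are 95% Wilson intervals over genes, and the labels give bound genes of genes in the list. All translation factors (21.6%) lie beside all protein-coding genes (20.1%), while cytoplasmic ribosomal proteins reach 59.1%.

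Sequence at some of these summits is shown in part. The GC content and motif counts described next come from longer, untrimmed windows, so the printed stretches can differ from them. The stretch printed for eIF2Bbeta has 34.0% GC, against 47.8% in its longer window. Windows reaching 75 bp to either side of the summit were taken for the 8 bound members on arms 2L, 3L, 3R and X. Only the longest stretch outside annotated untranslated regions is printed, on the strand of the gene, from the release 6 genome (dm6). These stretches are eIF2Bbeta at chrX:2703853-2703955 (plus strand), eIF4EHP at chr3R:24109112-24109262 (minus strand), eEF1gamma at chr3R:29220083-29220171 (plus strand), eIF2beta at chr3L:12526925-12527075 (minus strand), eEF2 at chr2L:21682165-21682221 (minus strand) and eIF3h at chr2L:5052638-5052735 (minus strand). The eEF2 stretch lies just upstream of the summit, and the others contain it. At eIF5B and eIF4A fewer than 50 such bases remained, and none is printed. Capitals mark matches, on either strand, to the sequences searched. These were the DRE, TATCGATA, the M1BP sequence, spelled GGTCACACT, and GAGA, spelled GAGAG. They also included CAGTGTA, searched because it ranked first in an earlier analysis of these peaks. The E-box was searched as CACGTG. The DM core was searched as ACAATGT, which reads ACATTGT on the other strand, so this was a single sequence. No stretch shown held more than 1 of these motifs, and 3 held none.
eIF2Bbeta: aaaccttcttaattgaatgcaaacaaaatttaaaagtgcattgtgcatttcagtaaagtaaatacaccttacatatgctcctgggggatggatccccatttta
eIF4EHP: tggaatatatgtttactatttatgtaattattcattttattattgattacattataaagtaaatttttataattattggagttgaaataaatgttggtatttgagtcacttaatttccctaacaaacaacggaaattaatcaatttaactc
eEF1gamma: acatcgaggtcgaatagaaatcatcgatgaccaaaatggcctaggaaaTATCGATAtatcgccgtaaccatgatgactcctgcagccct
eIF2beta: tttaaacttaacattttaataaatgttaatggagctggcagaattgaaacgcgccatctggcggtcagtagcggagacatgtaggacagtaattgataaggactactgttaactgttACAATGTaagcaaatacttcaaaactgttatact
eEF2: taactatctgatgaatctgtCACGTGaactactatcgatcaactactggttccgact
eIF3h: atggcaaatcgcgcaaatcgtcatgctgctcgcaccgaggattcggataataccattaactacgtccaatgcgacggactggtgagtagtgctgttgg

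Base composition set the bound summits apart from one another. Over 100 bp to either side of the summit the GC content was 47.8% at eIF2Bbeta, 41.8% at eEF1gamma and 57.7% at eIF4A, but 20.4% at eIF4EHP, the lowest of the 11. The median of the 11 bound genes was 44.3%, against 33.3% over all 2807 bound protein-coding genes. The translation factor summits thus lay, at the median, in sequence richer in GC than the usual bound promoter.

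No motif searched was found under more than 1 of the 11 summits, and 1 window of 11 is 9.09%. Of the 11 windows, taken 100 bp to either side of the summit, 1 held DRE (eEF1gamma), against 4.10% of the windows of all bound genes. GAGA was found in 1 window (eIF4A), against 21.1% of all. The E-box was found at eEF2, against 1.82%, and the DM core, the sequence taken for DM-domain proteins, at eIF2beta, against 3.53%. Neither the M1BP sequence nor CAGTGTA was present in any of the 11, against 1.60% and 4.70% of all bound genes. Counts of 0 or 1 in 11 windows do not set the members apart from all bound genes. A missing match says only that these letters are not in the window.

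At the gene starts themselves DRE was found more often than in all genes, in bound and unbound members. In the stretch from 250 bp upstream to 50 bp downstream of the 5′ end of the gene, DRE was present in 14 of 51 translation factors (27.5%), against 9.37% of all protein-coding genes. It was held by 4 of the 11 bound genes (eIF2Bbeta, eIF4A, eIF6 and eEF1gamma) and by 10 of the 40 others, among them eIF1A, eIF2alpha, eIF2gamma, eIF3a and eEF1delta. As a share this was 4 of 11 and 10 of 40, a difference of few genes that was not tested. GAGA was found in 8 of 51 such promoters (15.7%), against 29.8% of all genes.

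Summits at the translation factors lay close to an annotated start site. The median distance from the nearest TSS was 87 bp, against 211 bp over all bound genes. All annotated TSSs of a gene were counted, and 7 of the 11 genes had several. From the 5′ end of the gene the same summits lay 14 bp (eEF1gamma) to 900 bp (eEF1alpha1) away. Of the 11 summits, 10 lay within 300 bp of a TSS, against 65.3% of those of all bound genes. A peak covered an annotated TSS in 9 of 51 translation factors (17.6%), against 8.63% of all protein-coding genes. The exceptions among the bound members were eIF2beta and eIF2Bbeta. Of the 11 summits 9 lay upstream of the nearest TSS (81.8%), against 79.9% of all bound genes, so their side did not stand out.

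**Figure D2:**
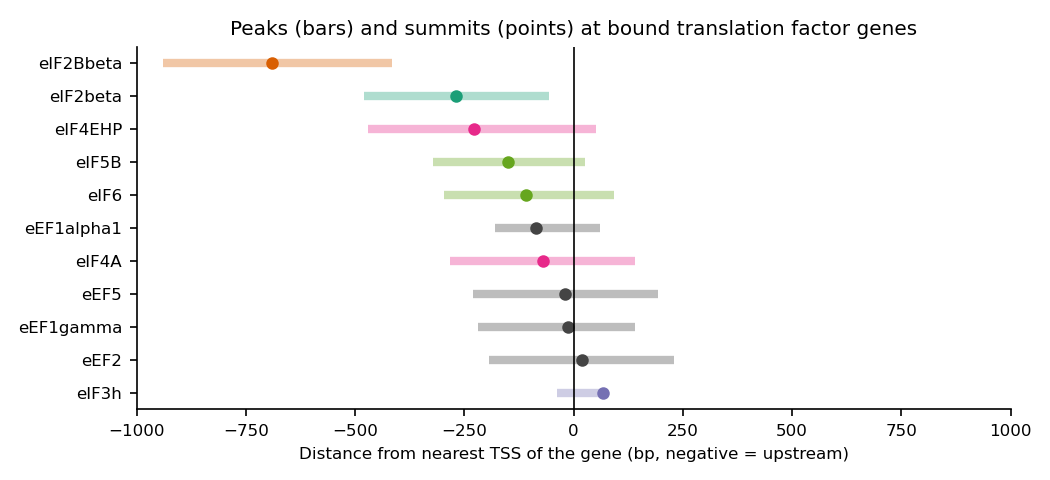
Position of the peak (bar) and of its summit (point) relative to the nearest TSS of the gene (x axis, bp, negative upstream) for the 11 promoter-bound translation factor genes, coloured by role as in the plot of distances. All summits but that of eIF2Bbeta (691 bp upstream) lie within 300 bp of the TSS, and those of eEF1gamma, eEF2 and eEF5 within 20 bp.

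Signal values at the bound members spanned almost the whole list. They ranged from 205 (eIF4A) to 9896 (eIF2Bbeta), with a median of 405, against a median of 427 over all bound genes. The upper quartile was 1978, against 875 over all bound genes. A few very strong peaks thus stood beside many near the middle of the list. The highest values, 9896 at eIF2Bbeta and 4248 at eIF4EHP, belong to summits nearer to a TSS of another gene. These were Ugalt (28 bp) and CG18428 (149 bp). The upper quartile was not recomputed without them. Each of the 11 summits was covered by a peak of replicate 3 and by a peak of replicate 4. Of all 2807 bound genes 99.1% had such a peak in replicate 3 and 98.5% in replicate 4, so the members stood at the background, and the IDR list was itself made from both replicates.

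**Figure D3:**
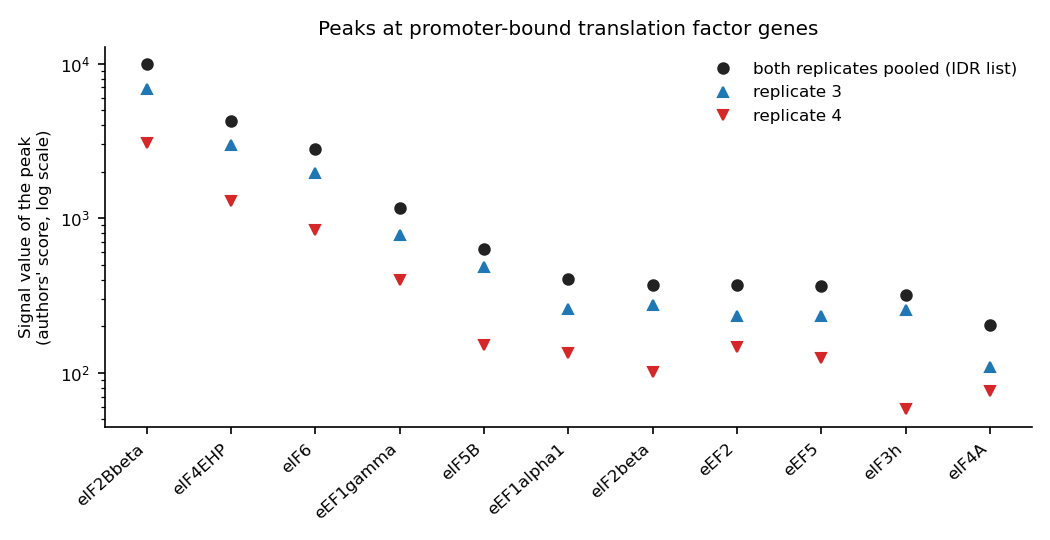
Signal value (y axis, authors' score, log scale) of the peak at each of the 11 promoter-bound translation factor genes in the IDR list, made from both replicates (circles), and of the peak over the same summit in replicate 3 (upward triangles) and replicate 4 (downward triangles). The scale differs between lists, so only the order of genes can be read across them: eIF2Bbeta, eIF4EHP and eIF6 lead in each list.

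Among the factors that choose the start codon and carry the initiator tRNA, 1 of 7 was bound (14.3%). The Wilson interval of this share, 2.57% to 51.3%, includes the 20.1% of all protein-coding genes. The bound gene was eIF2beta, a subunit of the GTPase complex eIF2 that brings initiator methionyl-tRNA to the ribosome. Its peak (chr3L:12526788-12527211) had a signal value of 370 and rank 3611 in the IDR list of 7838 peaks. The summit lay 269 bp upstream of its single TSS. In replicate 3 the peak over this summit had a signal value of 275 and rank 3526, and in replicate 4 a signal value of 101.5 and rank 3953. Its ranks were thus alike in the 3 lists. The window held the DM core, printed in capitals. The other subunits of the complex had no IDR summit nearby: the closest lay 20342 bp from eIF2alpha and 11906 bp from eIF2gamma. The scanning factors eIF1 and eIF1A and the alternative tRNA carriers eIF2A and eIF2D were not bound either, with closest summits 6032 to 20806 bp away.

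The exchange factor eIF2B reloads eIF2 with GTP and is a point of control in stress. Of its 5 subunits 1 had a summit in range (20.0%, Wilson interval 3.62% to 62.45%), against 20.1% of all protein-coding genes. The bound subunit gene was eIF2Bbeta, and its summit was the strongest of the whole IDR list. That peak (chrX:2703631-2704155, signal value 9896, rank 1) ranked 2 in replicate 3 (signal value 6842) and 1 in replicate 4 (signal value 3073). Its summit lay 691 bp upstream of eIF2Bbeta but 28 bp from a TSS of Ugalt, which encodes a UDP-galactose transporter. The peak therefore belongs to eIF2Bbeta only through the distance rule, and the gene was no longer bound at a distance of 500 bp. For the other subunits the closest IDR summit lay 2940 bp (eIF2Bdelta) to 41316 bp (eIF2Balpha) away.

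The eIF3 complex, the scaffold of the small subunit during initiation, had 1 of 16 genes bound (6.25%, 95% Wilson interval 1.11% to 28.3%), against 20.1% of all protein-coding genes, a share that lies within that interval. The bound gene was eIF3h, which encodes one of its subunits. Both of its IDR summits lay inside the gene. The nearer one (chr2L:5052708-5052819, signal value 320, rank 4184) lay 67 bp downstream of its second start site, in a coding exon. The stronger one (chr2L:5052329-5052593, signal value 696, rank 1706) lay in an intron 269 bp downstream. A TSS of senju, the neighbouring gene, lay 130 bp from the nearer summit. The nearer peak ranked 3847 in replicate 3 (signal value 253) and 7070 in replicate 4 (signal value 57.8), so it stood lower in replicate 4. Of the unbound subunits, eIF3d1 came closest, with a summit of signal value 1927 lying 1302 bp upstream. It would be the only translation factor gene added if the distance were 2000 bp. For the remaining 14 the closest IDR summit lay 6596 bp (eIF3l) to 33701 bp (eIF3a) away.

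**Figure D4:**
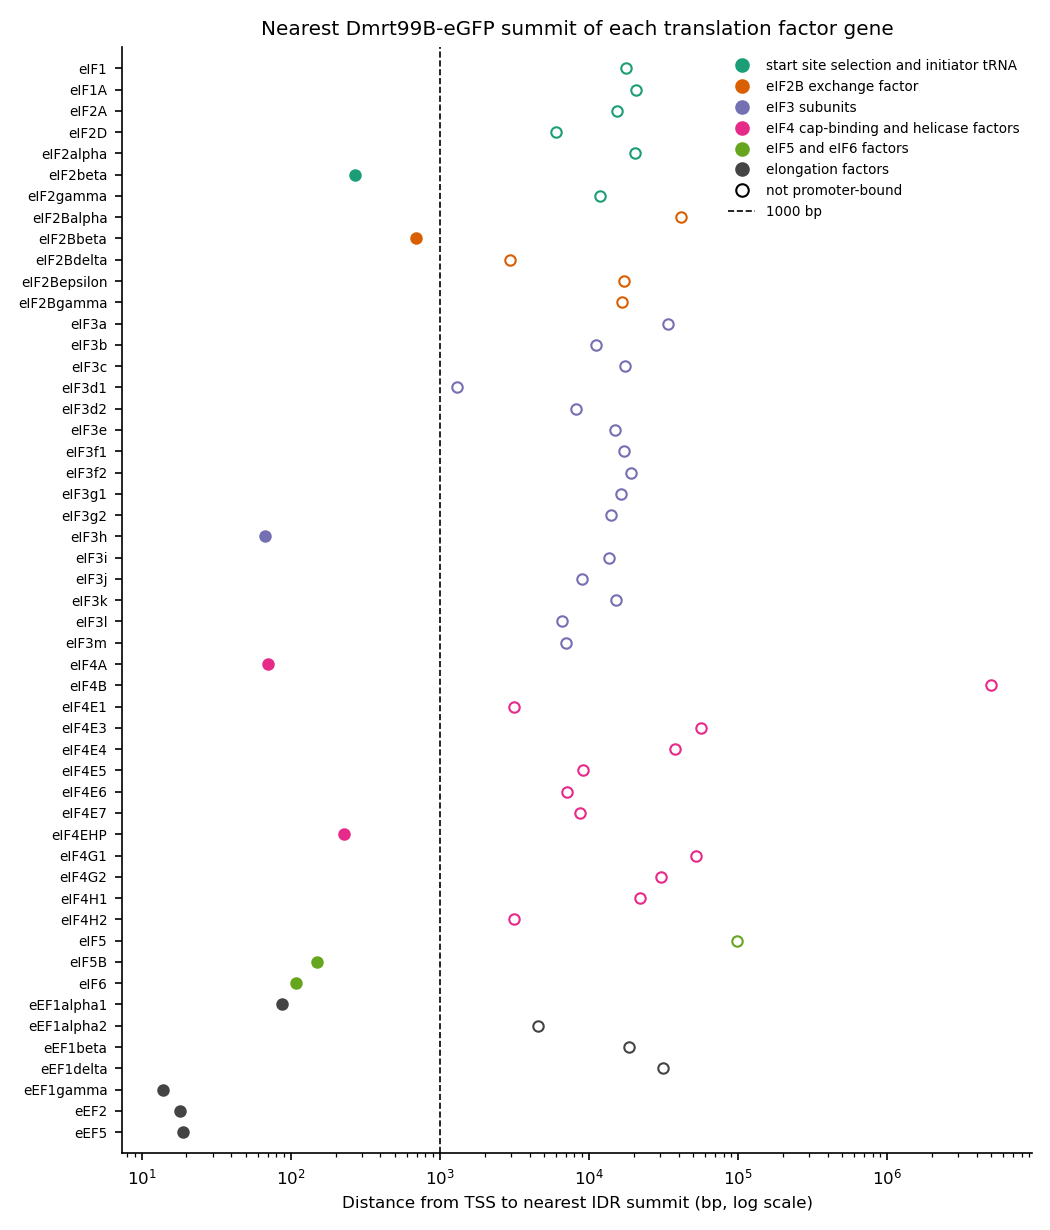
Distance from a TSS to the nearest IDR summit (x axis, bp, log scale) for each of the 51 translation factor genes (rows), coloured by role. Filled points are promoter-bound, open points are not, and the dashed line marks 1000 bp. Between eIF2Bbeta at 691 bp and eIF3d1 at 1302 bp no gene lies, and eIF4B lies farthest out, at 4948137 bp.

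The eIF4 factors recognise the mRNA cap and unwind the leader. Of their genes 2 of 13 were bound (15.4%, Wilson interval 4.33% to 42.2%), against 20.1% of all protein-coding genes. The stronger was eIF4EHP, a cap-binding protein related to eIF4E that represses translation and is known in the fly embryo as the partner of Bicoid on caudal mRNA. Its peak (chr3R:24108909-24109430) had a signal value of 4248 and rank 46. It ranked 47 in replicate 3 (signal value 2953) and 43 in replicate 4 (signal value 1289). The order of this peak was thus nearly the same in both replicates. The summit lay 227 bp upstream of eIF4EHP and 149 bp from a TSS of CG18428, so this promoter is shared. A further 7 IDR summits lay in introns of eIF4EHP, which is 45884 bp long, with signal values of 200 to 735. None of these 7 had eIF4EHP as the protein-coding gene with the nearest TSS: 5 lay nearest to Syx1A and 2 to SMC1.

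The other was eIF4A, the DEAD-box helicase that unwinds mRNA leaders. It had the weakest peak of the 11 (chr2L:5982312-5982735, signal value 205, rank 6591). The summit lay 70 bp upstream of the last of its 3 annotated start sites, in the 5′ UTR of a longer transcript. The peak over it ranked 8991 in replicate 3 (signal value 109) and 5359 in replicate 4 (signal value 75.7). Among the 3919 strongest IDR peaks eIF4A was no longer bound. A second summit (signal value 196), 682 bp upstream of eIF4A, lay 64 bp from a TSS of chic.

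Apart from eIF4EHP, none of the eIF4E genes was bound. The main cap-binding protein gene eIF4E1, with 4 annotated TSSs, had its closest IDR summit 3139 bp away (signal value 188). For eIF4E3, which works in the male germ line, and for eIF4E5, eIF4E6 and eIF4E7 that distance was 7140 to 56744 bp. Only eIF4E4 had a summit in range in the relaxed list pooled from both replicates (chr3L:6665804-6666227, signal value 48.9, rank 24244 of 30000), 375 bp upstream. Replicate 3 also had a summit in range there (rank 21445), but replicate 4 had none. Neither eIF4G1, the scaffold of the cap complex and the only member on chromosome 4, nor eIF4G2, its testis paralogue, was bound, with distances of 52248 and 30296 bp. The closest IDR summit to eIF4B, which aids the helicase, lay 4948137 bp away on 3L. In the pooled relaxed list the closest lay 774224 bp away, so a long stretch around eIF4B held no pooled summit. For the related genes eIF4H1 and eIF4H2 the closest IDR summit lay 22014 and 3123 bp away.

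Of the 3 late-acting factors eIF5, eIF5B and eIF6, 2 were bound (66.7%), against 20.1% of all protein-coding genes. With 3 genes the Wilson interval is wide, 20.77% to 93.85%, and starts just above that share. The gene eIF6, whose product keeps the large ribosomal subunit from joining early, had the strongest peak after eIF2Bbeta and eIF4EHP (chr2R:23850208-23850598, signal value 2791, rank 146). It ranked 146 in replicate 3 (signal value 1967) and 144 in replicate 4 (signal value 837). Its summit lay 108 bp upstream, and the next protein-coding TSS, that of ytr, lay 664 bp away. The GTPase of subunit joining, eIF5B, had its summit 150 bp upstream of a start site (chr3L:3460578-3460924, signal value 635, rank 1910). That peak ranked 1763 in replicate 3 (signal value 486) and 2488 in replicate 4 (signal value 151.3). The gene eIF5B is 32320 bp long and held 9 IDR summits in all, 8 of them in introns. Of those 8, 3 had the eIF5B TSS as the nearest and 5 lay nearest to sty, an inhibitor of receptor tyrosine kinase signalling. The strongest of the 5 had a signal value of 1332. The GTPase-activating factor eIF5 was not bound, with a distance of 98420 bp.

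Of the 7 elongation factors 4 were bound (57.1%, Wilson interval 25.05% to 84.18%), against 20.1% of all protein-coding genes. Each of the 4 had its summit within 100 bp of a start site. The strongest peak lay at eEF1gamma, a subunit of the complex that recharges eEF1alpha with GTP (chr3R:29219954-29220313, signal value 1165, rank 825). It ranked 895 in replicate 3 (signal value 781) and 636 in replicate 4 (signal value 399). The summit lay 14 bp upstream of the first start site, the closest of the 51 genes, and DRE lies in the stretch printed for it. At eEF1alpha1, which delivers aminoacyl-tRNA, the signal value was 405 (chr2R:11891943-11892182, rank 3297), with the summit 87 bp upstream of one of 4 start sites. That peak ranked 3745 in replicate 3 (signal value 260) and 2887 in replicate 4 (signal value 134). At eEF2, the translocation GTPase, the signal value was 367 (chr2L:21681934-21682357, rank 3639), with the summit 18 bp downstream. It ranked 4200 in replicate 3 (signal value 233) and 2593 in replicate 4 (signal value 147). At eEF5, the factor known elsewhere as eIF5A that relieves stalling, the signal value was 364 (chr2R:24057567-24057990, rank 3670), with the summit 19 bp upstream. It ranked 4196 in replicate 3 (signal value 233) and 3142 in replicate 4 (signal value 125). The peaks of eEF1alpha1, eEF2 and eEF5 thus lay close together near the middle of the list. All 4 stood higher by rank in replicate 4 than in replicate 3. So did those of eIF2Bbeta, eIF4EHP, eIF4A and eIF6, but not those of eIF2beta, eIF3h and eIF5B. A separate summit 2537 bp downstream of the eEF5 start site lay 12 bp from a TSS of RpL12, a ribosomal protein gene.

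Paralogues and partners of the bound elongation factors were without peaks at their starts. The second eEF1alpha gene, eEF1alpha2, had its closest summit 4564 bp downstream, 58 bp from a TSS of CG1896. The exchange subunits eEF1beta and eEF1delta lay 18623 and 31451 bp from an IDR summit. Within the eEF1 complex, peaks were therefore found at eEF1alpha1 and eEF1gamma but not at eEF1alpha2, eEF1beta or eEF1delta. Among the other pairs of paralogues, eIF3d1 and eIF3d2, eIF3f1 and eIF3f2, and eIF3g1 and eIF3g2 were all unbound.

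The number of annotated start sites moved with binding, as it did over all protein-coding genes. The rule counts a summit near any TSS, so a gene with several is searched over more sequence. Several TSSs were annotated for 7 of 11 bound members and for 13 of 40 unbound members. Of the 20 members with several TSSs 7 were bound (35.0%), against 37.8% of all protein-coding genes with several. Of the 31 members with 1 TSS 4 were bound (12.9%), against 13.8% of all such genes. In both classes the members stood near the genome. All 4 bound elongation factors had several TSSs, and the part of TSS number in their share was not tested. With only the 5′ end of each gene counted, 4 of the 7 elongation factors had a summit in range, against 17.8% of all protein-coding genes. The summits of eEF1gamma, eEF2 and eEF5 lay 14, 18 and 19 bp from that end, but that of eEF1alpha1 lay 900 bp from it, near the limit of 1000 bp. Median gene length was 1938 bp for bound and 1968 bp for unbound members.

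Initiator sequences were examined because ribosomal protein and some translation factor genes are known to start within a pyrimidine tract, the TCT initiator. It was searched here as CTTT on the sense strand with its C within 5 bp of an annotated TSS. By this rule 7 of 51 translation factors carried it (13.7%), against 8.07% of all protein-coding genes. The carriers were eIF4A, eEF1alpha1, eEF2 and eEF5 among the 11 bound members, and 3 eIF3 genes (eIF3f1, eIF3i and eIF3m) among the 40 unbound. So 3 of the 4 bound elongation factors had the sequence, and eEF1gamma did not. Every annotated TSS of a gene was searched. The bound carriers had 2 to 4 TSSs, eIF3m had 2, and eIF3f1 and eIF3i had 1. The part of TSS number in these counts was not tested.

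For illustration, start sites with this sequence are shown for 2 bound genes, eEF2 and eIF4A, and for 2 unbound genes, eIF3f1 and eIF3i. Each runs from 10 bases upstream to 15 bases downstream of the annotated start, on the strand of the gene, with the matching CTTT in capitals. Their positions are eEF2 at chr2L:21682101-21682126 (minus strand), eIF4A at chr2L:5981754-5981779 (plus strand), eIF4A at chr2L:5982584-5982609 (plus strand), eIF3f1 at chr3R:4714167-4714192 (minus strand) and eIF3i at chr2L:4967760-4967785 (minus strand).
eEF2 start site 21682116: tgcagcgcctcgctCTTTcctgtcga
eIF4A start site 5981764: gcaagatggagcctCTTTtgcttggt
eIF4A start site 5982594: ctatcgCTTTcggtctcatacgtaaa
eIF3f1 start site 4714182: actatcgataggccCTTTtcttgcat
eIF3i start site 4967775: cacggtcacactgctCTTTtggcgtg

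Beyond the IDR list the pooled peaks added little. In the pooled relaxed list, which holds 30000 peaks, 12 of 51 translation factors had a summit within 1000 bp (23.5%), against 34.0% of all protein-coding genes. Lowering the threshold thus added only eIF4E4 among the members. The Wilson interval of their share, 14.00% to 36.76%, includes the 34.0% of all genes, so the members are not set apart from them. In the relaxed list of replicate 3 the count was 17 of 51 (33.3%), against 34.8% of all genes. In that of replicate 4 it was 18 of 51 (35.3%), against 38.8%. Some of these were of middling rank and present in 1 replicate only. The peak at eIF3m ranked 4058 in replicate 3 (chr2R:14164659-14165088, signal value 241, 49 bp upstream), with no summit in range in replicate 4. The peak at eIF1 ranked 4099 in replicate 4 (chr3L:3223043-3223438, signal value 97.7, 100 bp upstream), with none in replicate 3. For eIF4G2 both replicate lists had a summit in range, of rank 4487 in replicate 4 and 18244 in replicate 3, yet the nearest pooled summit lay 1184 bp away. The same held for eIF2Bgamma, with ranks 8446 in replicate 4 and 21366 in replicate 3 and the nearest pooled summit 7340 bp away. In replicate 3 but not in replicate 4, summits lay in range at eIF1A (rank 18808), eIF4E4 (rank 21445) and eIF4H2 (rank 29073). In replicate 4 alone, they lay in range at eIF2Bdelta (rank 5734), eIF3b (rank 15884), eIF4B (rank 22923) and eIF3f2 (rank 25042). Among the 7838 strongest peaks of a replicate, 2.02% in replicate 3 and 5.41% in replicate 4 had no pooled peak over their summit.

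Unbound members lay somewhat farther from binding than unbound genes in general. The median distance from a TSS to the nearest IDR summit was 15898 bp for the 40 unbound members, against 10407 bp for the 11138 unbound protein-coding genes. In 27 of the 40 (67.5%) it exceeded 10 kb, against 51.5% of unbound genes.

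Some summits lay nearer to the start of a neighbouring gene. The member's own TSS was the protein-coding TSS nearest to the summit in 9 of 51 members (17.6%), against 15.9% of all protein-coding genes. The bound members that failed this were eIF2Bbeta and eIF4EHP, whose summits lay nearer to Ugalt and CG18428. Another protein-coding TSS lay within 1000 bp of the summit at 6 of the 11 bound members, against 46.9% of all bound genes. By arm, 3 of 5 members were bound on 2L, against 20.3% of all protein-coding genes there, and 3 of 12 on 2R, against 18.9%. On 3L 2 of 11 were bound, against 21.8%, and on 3R 2 of 15, against 18.8%. On X 1 of 7 was bound, against 21.8%, and on chromosome 4 the single member was not, against 8 of 80 genes there. These counts are too small to order the arms.

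Other gene lists were set beside the same background of 20.1% of all protein-coding genes. Of 93 cytoplasmic ribosomal protein genes, 55 were bound (59.1%, 95% Wilson interval 49.0% to 68.6%). Their median summit distance was 26 bp, against 211 bp over all bound genes, and 62.4% carried the TCT sequence, against 8.07% of all genes. Of 73 mitochondrial ribosomal protein genes 20 were bound (27.4%, interval 18.5% to 38.6%), and of 18 aminoacyl-tRNA synthetase genes 4 (22.2%, interval 9.0% to 45.2%). Of 48 genes of the proteasome, which degrades proteins, 5 were bound (10.4%, interval 4.53% to 22.2%). Median summit distances in these 3 lists were 158, 204.5 and 21 bp, in that order. The intervals of these 3 lists include the background. That of the 7 elongation factors, 25.1% to 84.2%, is wide and takes in the share of the cytoplasmic ribosomal proteins. No test was made between lists.

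Of 30 genes that control or assist translation, 12 were bound (40.0%), against 20.1% of all protein-coding genes. This list, like the others, was drawn up with earlier results of these peaks known. The strongest was Lk6, the kinase that phosphorylates eIF4E, with a signal value of 4857 (rank 29) and its summit 978 bp upstream, just inside the limit. The release factor gene eRF3 had a signal value of 834 (134 bp upstream), and the ribosome rescue factor gene pelo one of 429 (146 bp upstream). The poly(A)-binding protein gene pAbp had a signal value of 787 (485 bp downstream), and Paip2, which encodes its inhibitor, had one of 700 (757 bp downstream). Thor, the 4E-BP that blocks eIF4E, had a summit of signal value 293 lying 35 bp downstream. The helicase genes bel and vas had signal values of 575 and 357, and the bel summit lay 996 bp downstream, just inside the limit. Signal values were 386 for the ATF4 orthologue crc, 247 for hoip, and 193 and 179 for the repressors pum and brat. The 18 unbound genes included eRF1, the eIF2 kinases PEK and Gcn2, the kinase S6k, 4E-T, pix and the mitochondrial factors mEFTu1, mEFTs, mEFG1, mIF2 and mIF3. At a distance of 500 bp, 8 of the 30 remained bound, against 16.1% of all protein-coding genes.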

How the data were processed

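ChIP-seq peak lists of 2 biological replicates were used. The values are scores, the signal value of each peak as deposited by the authors, with a scale that is not stated and differs between lists. Per the listing that accompanies the samples, relaxed lists of 30000 peaks came from the alignments of replicate 3, of replicate 4 and of both pooled, each with a further file that was not used here, and the IDR list of 7838 peaks came from these 3 lists. Coordinates are in dm6, per the labels. The aligner and peak caller were not given in the sources used here. Fragments were sonicated to a range of 200 to 800, per the labels.

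Summits were placed on the genes of Ensembl release 115 and on the release 6 genome, in which no peak passed the end of an arm. For each gene the IDR summit nearest to any TSS within 1000 bp was taken. Motifs were searched on both strands in windows of 100 bp to either side of that summit. Computations used Python 3.11.15, numpy 2.4.6, scipy 1.17.1 and matplotlib 3.10.9, and the placement was tested on simulated positions. With 1 group, no test over samples could be made, and gene lists are described by counts beside all protein-coding genes. The 95% Wilson intervals cover counting over genes only, and neighbouring genes can share a peak. Of 34 symbols listed as translational control and partners, 30 were found. The members were picked by the form of their symbol, but this gene class, the lists and the motifs were chosen with earlier results of these data known. All 51 members are accounted for, and all bound members are named with values. The rule for sequences, the 6 highest and the 2 lowest signal values on the arms printed, took in all 8 bound members there, trimmed to exclude untranslated regions. The start-site sequences were chosen after their letters were seen.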

Additional observations from a re-analysis of the deposited data

How the results depend on the processing

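The count of promoter-bound members was 11 and lay between 9 and 14 under the 9 alternatives. A TSS distance of 500 bp lost eIF2Bbeta and one of 2000 bp added eIF3d1. The 3919 strongest IDR peaks lost eIF4A, and the pooled relaxed list added eIF4E4. Requiring the peak to cover a TSS lost eIF2beta and eIF2Bbeta, and counting only the nearest gene lost eIF2Bbeta and eIF4EHP. Leaving out a replicate also left out the IDR threshold, since the 7838 strongest peaks of the other replicate's own relaxed list were used. Without replicate 3 the count was 14 (eIF1, eIF2Bdelta and eIF4G2 added), and without replicate 4 it was 12 (eIF3m added). The background moved with these rules, from 8.63% of all protein-coding genes where the peak had to cover a TSS to 34.0% in the relaxed list. Elongation factors numbered 4 of 7 in each of these settings, and 7 members (eIF3h, eIF5B, eIF6, eEF1alpha1, eEF1gamma, eEF2 and eEF5) were bound in all 10. Split by TSS number, a choice made after seeing the data, the share bound was 12.9% with 1 TSS and 35.0% with several. Bound aminoacyl-tRNA synthetase genes numbered 1 among the 3919 strongest peaks, against 4 in the full list. Motif counts in member windows, all from 0 to 2, moved with the window and the replicate and carry no direction. Of 80 recomputed values 68 stayed within the limits set for them, which were 1.5 times for a count and the 95% interval for a share or median. With 11 bound members these intervals are wide, and the settings reuse much of the same data. The tally is therefore no measure of how stable the results are. No paired analysis was possible because there was 1 group. Read depth is unknown, so an absent peak cannot be told from one too weak to be listed.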
